A study of Mus musculus with 36 samples.

Results

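Arc, Homer1, Bdnf, Npas4 and Nptx2 are genes that neurons switch on when their synapses are active. All probe sets carrying one of these 5 gene symbols in the platform annotation were taken, which gave 12 of the 45101 probe sets on the array and 5 of 18193 genes: 1 for Arc, 6 for Homer1, 2 for Bdnf, 1 for Npas4 and 2 for Nptx2. They were followed across 36 arrays from the forebrain of 18 adult heterozygous Cnp – eGFP-L10a mice of strain C57BL/6. In these mice the Cnp promoter, active in myelin-forming oligodendrocytes, places a fluorescent tag on the ribosomal protein L10a, so that messenger RNA on tagged ribosomes can be immunoprecipitated. Each animal gave a bound array (the precipitated oligodendrocyte RNA) and an unbound array (the remainder, with neurons and other glia). In each fraction 6 sleep deprived, 6 waking and 6 sleep arrays were available. Sleep deprived mice had been awake by themselves for most of the dark phase and were then kept awake for 4 h of the light period with unfamiliar objects. Waking mice were killed at 3 to 5 am, in the dark phase, having been awake for 70% or more of the 6 to 7 h before. Sleep mice were killed at 3 to 5 pm, in the light phase, having slept for 75% or more of the same span. All 3 states carried the transgene. Waking mice were killed in the dark phase and the other groups in the light phase, and the labels give no clock hour for sleep deprived mice, so state and time of day cannot be told apart in any of the 3 comparisons.

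The 5 genes have different jobs at the synapse. Synaptic calcium entry activates kinases that phosphorylate transcription factors already in place, among them CREB, and these switch on a first wave of immediate-early genes within minutes. Npas4 is an immediate-early transcription factor of neurons that controls inhibitory synapse number and Bdnf transcription. Arc protein works at the postsynapse, where it promotes endocytosis of AMPA-type glutamate receptors. Homer1 proteins link metabotropic glutamate receptors to Shank scaffolds and to calcium stores. A short form of Homer1, made in response to activity, lacks the coiled coil that joins the long forms and competes with them. Bdnf is a secreted neurotrophin that acts on the receptor TrkB (Ntrk2), and Nptx2 is a secreted pentraxin that gathers AMPA receptors at excitatory synapses on inhibitory neurons.

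Promoter windows are shown because these genes share a known route of induction through CREB, which binds the cyclic AMP response element. The 250 bases before the annotated start were read from RefSeq on build GRCm38.p6 for Homer1 (2 starts), Bdnf (7 starts) and Npas4 (1 start), 3 of the 5 genes. The half-site of the element, TGACG, was searched on both strands, and 17.8% of 32851 promoter windows of this length held it. Capitals mark the half-site or its reverse complement CGTCA in the 3 windows that held it, each written from 5′ to 3′ along the gene.
Homer1, start 1 (chr13:93303507-93303756, plus strand): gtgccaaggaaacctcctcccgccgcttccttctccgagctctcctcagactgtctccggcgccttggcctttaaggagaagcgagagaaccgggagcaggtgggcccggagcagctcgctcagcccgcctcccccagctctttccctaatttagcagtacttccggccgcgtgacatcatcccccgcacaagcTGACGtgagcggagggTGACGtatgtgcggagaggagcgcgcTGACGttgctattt
Bdnf, start 3 (chr2:109692186-109692435, plus strand): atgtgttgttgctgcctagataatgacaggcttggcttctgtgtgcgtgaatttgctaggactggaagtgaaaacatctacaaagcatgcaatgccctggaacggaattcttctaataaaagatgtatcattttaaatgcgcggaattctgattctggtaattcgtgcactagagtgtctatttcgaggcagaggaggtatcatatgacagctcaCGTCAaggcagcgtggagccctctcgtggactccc
Npas4 (chr19:4989972-4990221, minus strand): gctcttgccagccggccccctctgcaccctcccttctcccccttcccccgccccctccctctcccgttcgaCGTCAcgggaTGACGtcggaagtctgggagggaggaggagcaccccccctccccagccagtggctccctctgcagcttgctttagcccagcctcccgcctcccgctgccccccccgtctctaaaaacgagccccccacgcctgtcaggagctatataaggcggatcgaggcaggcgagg
The Homer1 window had 3 half-sites, beginning 56, 40 and 14 bases before the start. The Bdnf window had 1 at 35 bases, and the Npas4 window had 2, at 179 and 169 bases. The full element TGACGTCA, held by 1.55% of all windows, was in none of the 10 windows of the 3 genes. The AP-1 letters TGANTCA, in 6.75% of all windows, occurred once, in the window of the second Bdnf start. The TATAAA box was in none of the 10 windows, against 12.4% of all windows. The CArG and MEF2 motifs, held by 1.47% and 0.508% of all windows, were in none either. These are matches of letters, not measured binding.

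The labelled cell types were compared with their markers. Oligodendrocyte markers were higher in bound than in unbound arrays for 7 of 7 genes measured (median log2 difference 2.39), and the neuron markers were lower for 9 of 9 (median −0.77). Of all genes, 20.4% were called higher and 62.2% lower, with a median of −0.37. Markers of excitatory, inhibitory and striatal neurons were lower for 5 of 5, 7 of 7 and 5 of 5 (medians −2.75, −1.5 and −2.3). The neuron markers were still bright in the bound arrays, at a mean of 11.16 to 11.65 log2 per array against 12.5 to 12.75 in the unbound arrays. Markers of excitatory, inhibitory and striatal neurons were dimmer in bound arrays, at 7.54 to 8.41, 8.47 to 9.35 and 6.64 to 7.52 log2. Whether these bound signals came from neuronal RNA was not tested. In these bulk samples, fewer cells of a type and less RNA per cell cannot be told apart. Array means were nearly equal within each group, with an SD of 0.00296 to 0.00974, and averaged 5.91, 5.92 and 5.91 log2 in bound sleep deprived, waking and sleep arrays, and 6.41, 6.33 and 6.40 log2 in unbound arrays. The median probe set of unbound arrays moved by 0.087 between sleep deprivation and waking and by −0.069 between waking and sleep. No source states whether RMA was run on all arrays together or on each group by itself. If by group, differences between groups, and between fractions, also hold any difference between those runs, which cannot be told apart from state here. After quantile normalization within each fraction the 2 medians were 0.002 and −0.002, and calls that changed under it are given with their values. In 3 animals (waking replicates 3 and 5 and sleep deprived replicate 11) the Y-linked genes Eif2s3y and Kdm5d read 2.64 to 3.90 log2, against 7.08 to 9.94 in the other 15. No sleep animal was among the 3, and the labels give no sex. Calls that changed without these 3 animals are given with their values.

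Arc, Homer1, Bdnf and Nptx2 each had a probe set that was higher in sleep deprived than in sleep animals in bound arrays, and Arc, Homer1 and Bdnf had one in unbound arrays too. The Npas4 probe set was also called in bound arrays, at signals in the lower part of the range. Probe sets of one gene often disagreed. A probe set was called when limma gave a Benjamini-Hochberg adjusted p below 0.05 among all 45037 probe sets tested. In bound arrays 7 of the 12 probe sets were higher in sleep deprived than in sleep animals and 0 were lower, where 21.4% of all probe sets were called, 11.4% higher and 10% lower. In unbound arrays the same comparison called 5 higher and 0 lower (15.3% of all probe sets called, 8.28% higher and 7.04% lower). Waking against sleep called 5 higher and 0 lower in bound arrays (18% called, 10.4% higher and 7.54% lower), and 4 higher and 1 lower in unbound arrays (15.3% called, 5.59% higher and 9.74% lower). Sleep deprivation against waking called 4 higher in bound arrays (15% called, 6.62% higher and 8.41% lower) and 6 higher in unbound arrays (16.6% called, 11.2% higher and 5.39% lower), with 0 lower in both. The median log2 difference of the 12 against sleep was 0.66 (sleep deprivation) and 0.50 (waking) in bound arrays and 0.42 and 0.10 in unbound arrays. Across all probe sets those medians were 0.003, 0.017, 0.019 and −0.069. The 6 arrays of one state did not overlap the 6 of the other for 6, 3 and 1 of the 12 probe sets in bound sleep deprivation against sleep, bound waking against sleep and bound sleep deprivation against waking, where 10.5%, 9.59% and 7.96% of all probe sets did not overlap. In unbound arrays the same comparisons gave 4, 5 and 5 of 12, where 8.6%, 7.74% and 9.06% of all probe sets did not overlap. Each pair of comparisons with sleep shares the sleep arrays. The 12 probe sets are not 12 separate genes, since Homer1 alone gives 6 of them.

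**Figure D1:**
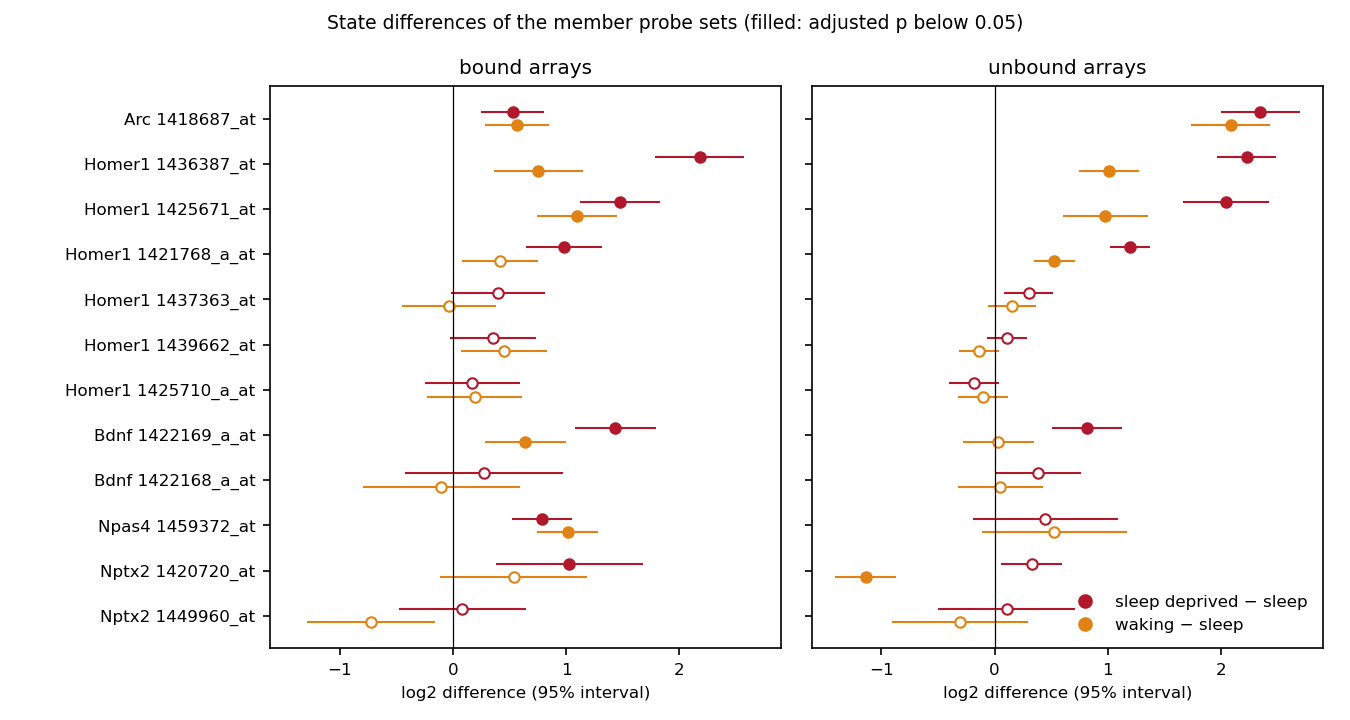
Log2 difference (x axis, with 95% interval) of each member probe set (rows) from sleep arrays, for sleep deprived (red) and waking (orange) arrays, in bound (left) and unbound (right) arrays. Filled points have an adjusted p below 0.05. Arc and 3 Homer1 probe sets were called against sleep in both states in unbound arrays, where the other 3 Homer1 probe sets lie between −0.18 and 0.30 and Nptx2 1420720_at lies at −1.14 in waking.

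Npas4, the transcription factor of the set, was read by 1 probe set (1459372_at) that read low signals. In bound arrays its lowest, median and highest signals were 3.71, 4.13 and 4.36 log2 in sleep deprived animals, 4.06, 4.32 and 4.67 in waking animals and 3.2, 3.3 and 3.47 in sleep animals. Every sleep deprived and every waking array lay above all 6 sleep arrays. The difference from sleep was 0.79 ± 0.13 log2 (SE, n = 6 each) in sleep deprivation (limma adjusted p = 0.000222) and 1.01 ± 0.13 in waking (adjusted p = 2.86e-05). The bound sleep signals lie within the range of 2.64 to 3.90 log2 that the Y-linked genes read in the 3 animals lacking Y-linked signal, although probe sets differ in their background. All 6 sleep deprived and all 6 sleep arrays were below the bound level filter of 4.467 log2 (the 40th percentile of probe sets), which Npas4 passed only through its unbound arrays. Whether the bound sleep signal was above background is not known, so the size of these bound differences is uncertain. Sleep deprived and waking levels did not separate (difference −0.23, 95% interval −0.49 to 0.04, adjusted p = 0.267).

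Npas4 was lower in bound than in unbound arrays in 18 of 18 animals (log2 difference −1.93 ± 0.13, limma adjusted p = 2.85e-11), and the state differences within unbound arrays were not called. Signals ran 5.49, 6.02 and 6.27 log2 (lowest, median and highest) in sleep deprived, 5.80, 6.07 and 6.24 in waking, and 4.78, 5.31 and 7.32 in sleep arrays. A single sleep array, that of replicate 4, gave the highest Npas4 signal of all 36 arrays, and the next sleep array was at 5.59. With it, the differences from sleep were 0.45 ± 0.31 in sleep deprivation (95% interval −0.19 to 1.09, limma adjusted p = 0.364) and 0.53 ± 0.31 in waking (−0.11 to 1.17, adjusted p = 0.265). Without it they were 0.81 (adjusted p = 0.00436) and 0.89 (adjusted p = 0.00226), with both comparisons called.

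**Figure D2:**
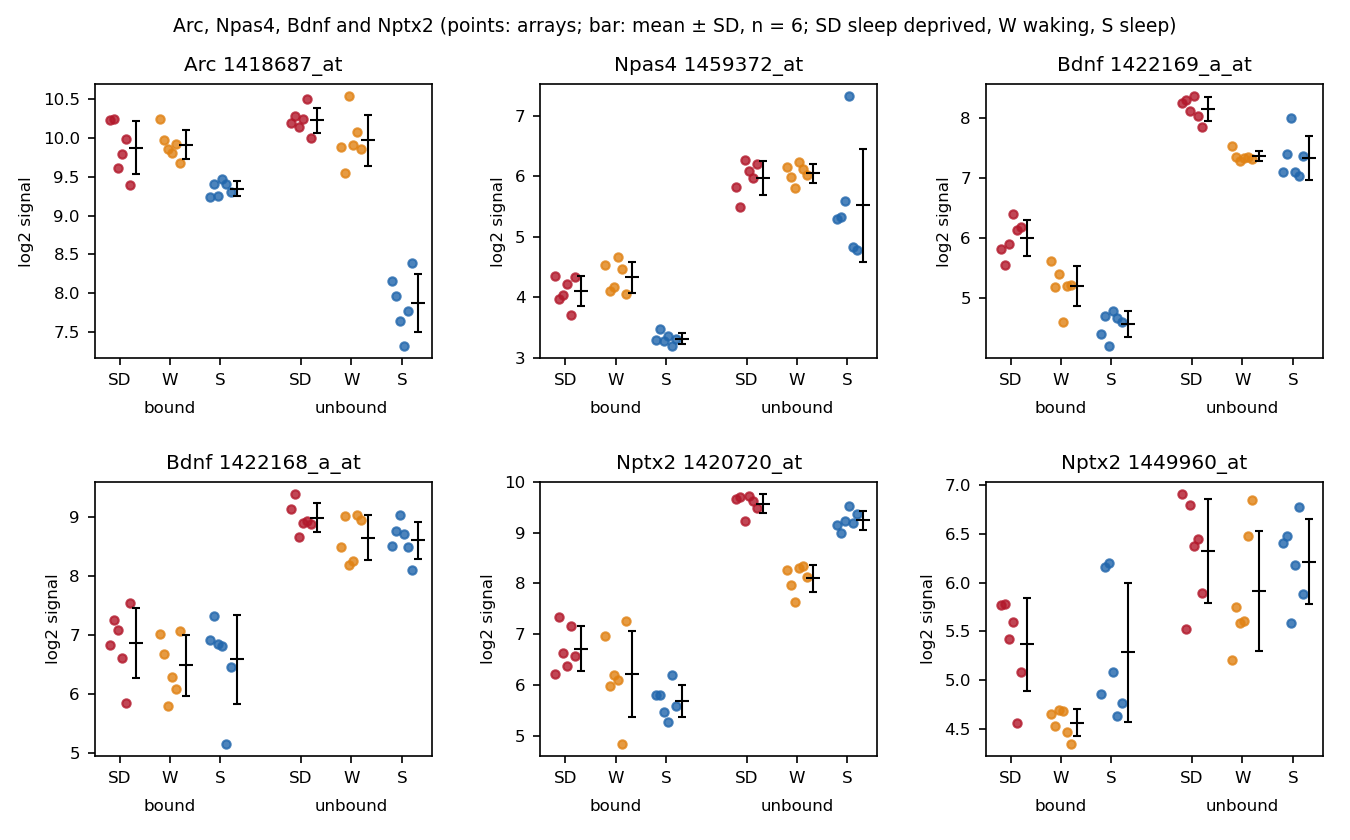
Log2 signal (y axis) of Arc, Npas4, Bdnf and Nptx2 probe sets in every array, by state (x axis: SD sleep deprived, W waking, S sleep) and fraction; points are arrays and bars the mean ± SD of 6. Unbound sleep arrays of Arc lie between 7.33 and 8.39, below all other groups, and 1 unbound sleep array of Npas4 lies at 7.32.

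Arc, the postsynaptic regulator of AMPA receptor endocytosis, showed a large difference in the unbound arrays. Its probe set 1418687_at read 10.00, 10.22 and 10.49 log2 (lowest, median and highest) in sleep deprived, 9.54, 9.89 and 10.53 in waking and 7.33, 7.87 and 8.39 in sleep arrays. All 12 arrays of awake animals lay more than 1 log2 above the highest sleep array. Arc was 5.08-fold higher in sleep deprived than in sleep animals (log2 difference 2.35 ± 0.17, SE, n = 6 each, limma adjusted p = 9.99e-08), rank 9 of all 45037 probe sets by p. In waking it was 4.25-fold higher than in sleep (2.09 ± 0.17, adjusted p = 5.5e-07, rank 12 by p). Sleep deprivation and waking overlapped (difference 0.26, 95% interval −0.09 to 0.61, adjusted p = 0.314).

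In bound arrays Arc varied far less. Signals were 9.39, 9.88 and 10.24 log2 (lowest, median and highest) in sleep deprived, 9.68, 9.89 and 10.23 in waking and 9.24, 9.35 and 9.47 in sleep arrays. The 6 sleep arrays were the lowest group and did not overlap the waking arrays, while 1 of the 6 sleep deprived arrays fell among them. The differences from sleep were 0.53 ± 0.13 in sleep deprivation (limma adjusted p = 0.00775) and 0.57 ± 0.13 in waking (adjusted p = 0.00562). Sleep deprivation against waking gave −0.04 (95% interval −0.32 to 0.24, adjusted p = 0.894). Every Arc difference called here kept its call and direction in all alternatives run, including without each replicate. In the order of group means of Arc, unbound sleep deprived came first, then unbound waking, bound waking, bound sleep deprived, bound sleep and unbound sleep. Each group overlapped the next except the last step, from bound sleep (lowest 9.24) to unbound sleep (highest 8.39).

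Whether a state difference was unlike between the fractions was tested on the bound minus unbound value of each animal. For Arc this value was −0.35 ± 0.28 log2 in sleep deprived, −0.05 ± 0.40 in waking and 1.47 ± 0.44 in sleep animals (SD, n = 6 each). Bound exceeded unbound in 1 of 6 sleep deprived, 2 of 6 waking and 6 of 6 sleep animals. The state difference was smaller in bound arrays by 1.82 ± 0.21 log2 for sleep deprivation against sleep (SE, limma, the signed difference −1.82, adjusted p = 2.01e-05, where 14.6% of all probe sets were called, 7.37% higher and 7.22% lower). For waking against sleep the signed difference was −1.52 ± 0.21 (adjusted p = 0.000114, 14% called, 9.17% higher and 4.8% lower). Averaged over the 3 states, Arc was higher in bound arrays by 0.35 ± 0.09 (adjusted p = 0.000927), although only 9 of 18 animals showed that direction. It was the only one of the 12 probe sets called higher in bound arrays. The other 11 were called lower, with log2 differences of −1.08 to −2.76, in a comparison that called 82.5% of all probe sets, 16.5% higher and 66% lower. The median of all probe sets was −0.41 in that comparison and 0.06 after quantile normalization of all 36 arrays, under which Arc was at 0.59 and Nptx2 1449960_at, at −0.39, was no longer called (adjusted p = 0.0552).

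**Figure D3:**
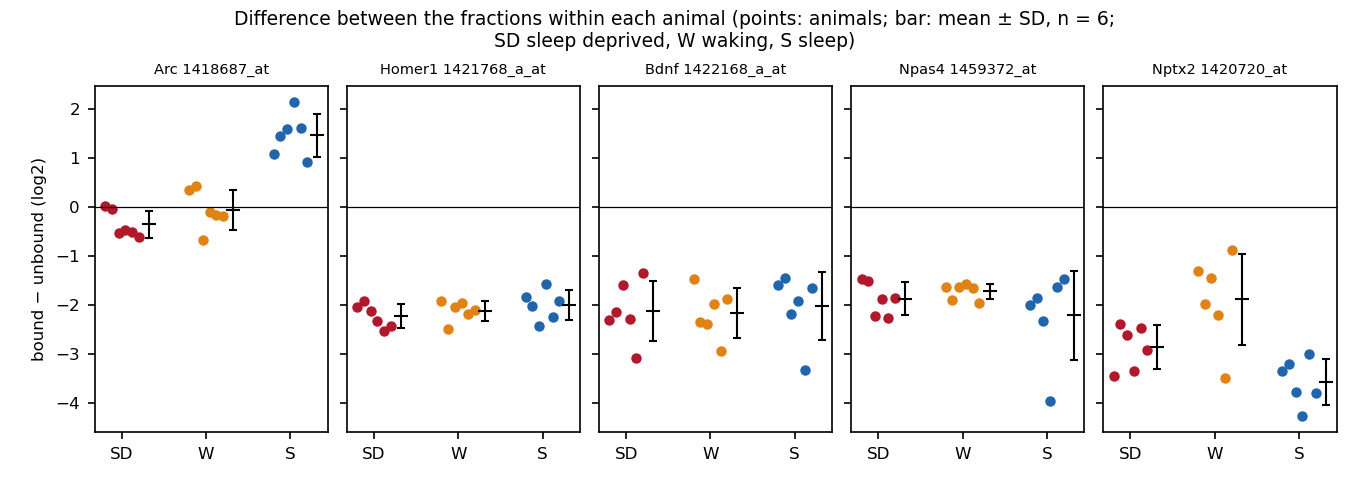
Bound minus unbound log2 signal (y axis) of each animal, by state (x axis: SD sleep deprived, W waking, S sleep), for the probe set of each gene with the highest mean; points are animals and bars the mean ± SD of 6. Arc is above 0 in all 6 sleep animals (0.91 to 2.14) and mostly below 0 in sleep deprived animals (−0.61 to 0.03), while the other 4 genes lie below 0 in every animal.

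Homer1, the scaffold of metabotropic glutamate receptors, was read by 6 probe sets that disagreed. In unbound arrays 1436387_at, 1425671_at and 1421768_a_at were called higher in sleep deprivation and in waking than in sleep, while 1437363_at, 1439662_at and 1425710_a_at were called in neither comparison. Which transcript of Homer1 each probe set reads, the short activity-induced or a long form, is stated nowhere in the sources used here.

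The most changed of them in unbound arrays was 1436387_at. Its unbound signals were 11.21, 11.64 and 11.76 log2 (lowest, median and highest) in sleep deprived, 9.94, 10.34 and 10.73 in waking and 9.09, 9.34 and 9.54 in sleep arrays. The 3 states formed separate bands, with sleep deprived highest and waking between. It was 4.68-fold higher in sleep deprivation than in sleep (log2 difference 2.23 ± 0.13, SE, limma adjusted p = 5.3e-09), rank 3 of all probe sets by p, and 2.02-fold higher in waking than in sleep (1.01 ± 0.13, adjusted p = 3.34e-05). Sleep deprivation exceeded waking by 1.21 ± 0.13 (adjusted p = 7.17e-06).

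In bound arrays 1436387_at was lower but moved by a like amount. Signals were 8.73, 8.84 and 9.32 log2 in sleep deprived, 6.86, 7.58 and 8.06 in waking and 6.34, 6.73 and 7.15 in sleep arrays. Sleep deprived arrays stood clear of both other groups, and waking overlapped sleep. Sleep deprivation exceeded sleep by 2.18 ± 0.19 (limma adjusted p = 3.97e-07) and waking by 1.43 ± 0.19 (adjusted p = 5.33e-05), and waking exceeded sleep by 0.76 ± 0.19 (adjusted p = 0.00819). Without the 3 animals lacking Y-linked signal the last value was 0.62 (adjusted p = 0.0566). Its difference of sleep deprivation from sleep differed between the fractions by −0.04 (95% interval −0.46 to 0.37, adjusted p = 0.914).

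The probe sets 1425671_at and 1421768_a_at moved the same way, mostly by less. The exception was 1425671_at in bound waking against sleep, at 1.10 log2 against 0.76 for 1436387_at. For 1425671_at, unbound signals were 11.10 to 11.90 log2 in sleep deprived, 10.13 to 10.98 in waking and 9.00 to 10.12 in sleep arrays, again without overlap. Differences from sleep were 2.04 ± 0.18 in sleep deprivation (limma adjusted p = 8.29e-07) and 0.98 ± 0.18 in waking (adjusted p = 0.00118). In bound arrays they were 1.48 ± 0.17 (adjusted p = 6.94e-06) and 1.10 ± 0.17 (adjusted p = 0.000181). For 1421768_a_at, unbound signals were 11.94 to 12.25 in sleep deprived, 11.16 to 11.62 in waking and 10.67 to 11.13 in sleep arrays. Differences from sleep were 1.20 ± 0.09 (adjusted p = 9.99e-08, rank 10 by p) and 0.53 ± 0.09 (adjusted p = 0.000437). In bound arrays 1421768_a_at gave 0.98 ± 0.16 in sleep deprivation (adjusted p = 0.000246) and 0.42 in waking (95% interval 0.08 to 0.75, adjusted p = 0.0786, and 0.0112 without bound sleep replicate 4).

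All 3 of these probe sets were higher in unbound sleep deprived than in unbound waking arrays, 1425671_at by 1.07 and 1421768_a_at by 0.67 log2 (limma adjusted p = 0.000582 and 5.12e-05). In bound arrays 1421768_a_at was 0.56 ± 0.16 higher (adjusted p = 0.0224). That call was lost without bound waking replicate 2 (0.0546) or 3 (0.0504), without bound sleep deprived replicate 7 (0.0536) and without the 3 animals lacking Y-linked signal (0.077). For 1425671_at the bound difference was 0.38 (95% interval 0.03 to 0.73, adjusted p = 0.146). Its difference of sleep deprivation from waking was smaller in bound than in unbound arrays (signed difference −0.69 ± 0.19, adjusted p = 0.0226, where 12.9% of all probe sets were called, 4.49% higher and 8.38% lower). Without waking replicate 4 or sleep deprived replicate 9 or 10 that call was lost (adjusted p = 0.0547, 0.0553 and 0.0518), as it was after quantile normalization within fractions (0.0506). For sleep deprivation against sleep the difference between the fractions was −0.57 (adjusted p = 0.0531), and −0.63 without the 3 animals lacking Y-linked signal (adjusted p = 0.0467).

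**Figure D4:**
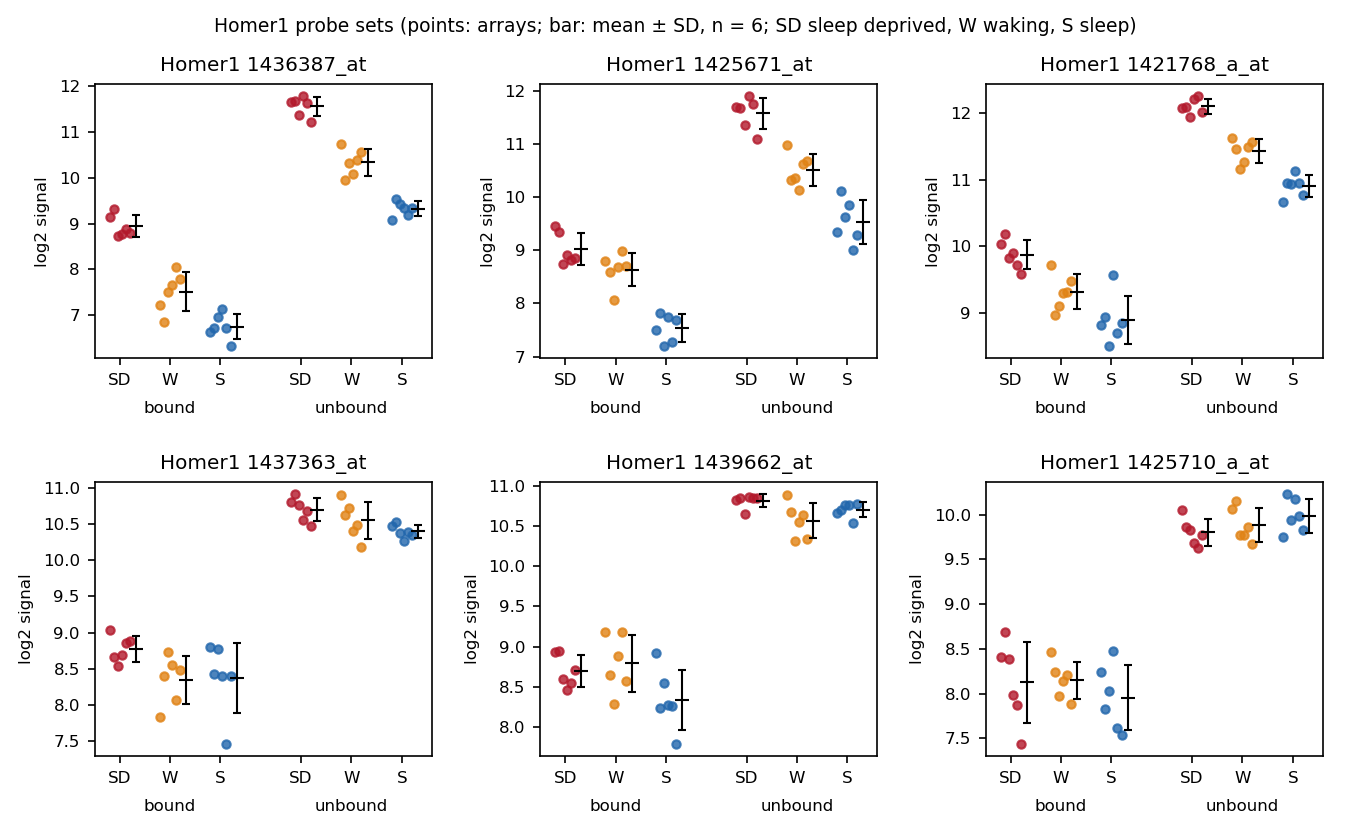
Log2 signal (y axis) of the 6 Homer1 probe sets in every array, by state (x axis: SD sleep deprived, W waking, S sleep) and fraction; points are arrays and bars the mean ± SD of 6. In the upper 3 panels the unbound sleep deprived, waking and sleep arrays form descending bands, and in the lower 3 panels the states overlap within each fraction.

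The other 3 Homer1 probe sets differed less between states. In unbound arrays 1437363_at read 10.48 to 10.91 log2 in sleep deprived, 10.17 to 10.90 in waking and 10.26 to 10.53 in sleep arrays. Its difference in sleep deprivation, 0.30 (95% interval 0.09 to 0.52, limma adjusted p = 0.0531), fell just outside the threshold and passed without sleep deprived replicate 11 (0.0355) or without all 3 animals lacking Y-linked signal (0.0412). For 1439662_at the unbound difference from sleep was 0.11 in sleep deprivation (95% interval −0.07 to 0.29) and −0.14 in waking (−0.31 to 0.04). For 1425710_a_at these were −0.18 (−0.40 to 0.04) and −0.10 (−0.32 to 0.12), so its intervals leave out a rise of the size seen for 1436387_at.

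Some calls on 1439662_at rested on few arrays. It was 0.25 ± 0.08 higher in unbound sleep deprived than in unbound waking arrays (limma adjusted p = 0.0493), and 9 of the 12 arrays of those groups, left out one at a time, ended that call, as did either quantile normalization (0.12 both ways, adjusted p = 0.38 over all 36 arrays and 0.384 within fractions) and leaving out the 3 animals lacking Y-linked signal (0.20, adjusted p = 0.202). The level filter (limma adjusted p = 0.0652), a fit without the intensity trend (0.0765) and the animal as a random block (0.24) ended that call too. For 1439662_at the difference of waking from sleep was larger in bound arrays than in unbound arrays by 0.59 ± 0.17 (adjusted p = 0.0265, in a comparison that called 9.17% of all probe sets higher). That call was lost without sleep replicate 4 (0.0517) or 6 (0.0621), without waking replicate 4 (0.0515) or 5 (0.0611), and without the 3 animals lacking Y-linked signal (0.57, adjusted p = 0.0796). Quantile normalization of all 36 arrays also ended it (0.50, limma adjusted p = 0.0503). In bound arrays its own difference of waking from sleep, 0.45 (95% interval 0.07 to 0.83, adjusted p = 0.0924), passed without bound sleep replicate 1 (0.031) or bound waking replicate 3 (0.0434). Between the fractions all 6 Homer1 probe sets were lower in bound arrays, with log2 differences of −1.81 (1425710_a_at) to −2.66 (1436387_at), in 18 of 18 animals.

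Bdnf, the neurotrophin, was read by 2 probe sets that also differed. The probe set 1422169_a_at had unbound signals of 7.84, 8.18 and 8.35 log2 (lowest, median and highest) in sleep deprived, 7.29, 7.34 and 7.54 in waking and 7.03, 7.23 and 8.00 in sleep arrays. Sleep deprived arrays lay above every waking array, while waking arrays fell within the sleep range. Sleep deprivation exceeded sleep by 0.82 ± 0.15 (1.76-fold, limma adjusted p = 0.00109) and waking by 0.78 ± 0.15 (adjusted p = 0.00157). Waking against sleep gave 0.03 (95% interval −0.28 to 0.35, adjusted p = 0.908).

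In bound arrays the 3 states of 1422169_a_at were stepped. Signals were 5.55, 6.02 and 6.41 log2 in sleep deprived, 4.61, 5.21 and 5.62 in waking and 4.21, 4.64 and 4.8 in sleep arrays. The sleep deprived arrays did not overlap the sleep arrays, and waking overlapped both. The sleep arrays averaged 4.57 log2, close to the bound level filter of 4.467 log2. Whether this sleep signal was above background is not known. The size of the bound differences from sleep, and of their bound minus unbound values, is therefore uncertain. Sleep deprivation exceeded sleep by 1.44 ± 0.17 (2.71-fold, limma adjusted p = 1.03e-05) and waking by 0.80 ± 0.17 (adjusted p = 0.00357). Waking exceeded sleep by 0.64 ± 0.17 (adjusted p = 0.0131), a call lost without the 3 animals lacking Y-linked signal (0.59, adjusted p = 0.065). Bound minus unbound, the difference of waking from sleep was 0.61 (95% interval 0.08 to 1.14, adjusted p = 0.119) and that of sleep deprivation from sleep 0.62 (0.09 to 1.15, adjusted p = 0.111), neither called.

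The Bdnf probe set with the higher mean signal, 1422168_a_at, was called in no state comparison. Its unbound signals were 8.67 to 9.39 log2 in sleep deprived, 8.20 to 9.03 in waking and 8.11 to 9.03 in sleep arrays. The difference of sleep deprivation from sleep was 0.38 (95% interval 0.01 to 0.76, limma adjusted p = 0.164) in unbound arrays and 0.28 (−0.42 to 0.97, adjusted p = 0.604) in bound arrays. Its spread between animals of a bound group, with an SD of 0.52 to 0.75 log2, was larger than that of 1422169_a_at, at 0.22 to 0.34. Both Bdnf probe sets were lower in bound arrays, with log2 differences of −2.10 (1422168_a_at) and −2.35 (1422169_a_at), in 18 of 18 animals.

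Nptx2, the secreted pentraxin, took a different order of states. Its probe set 1420720_at read 9.24, 9.64 and 9.73 log2 (lowest, median and highest) in unbound sleep deprived, 7.64, 8.19 and 8.33 in unbound waking and 9.00, 9.21 and 9.53 in unbound sleep arrays. All 6 waking arrays lay below every other unbound array. Nptx2 was 2.20-fold lower in waking than in sleep (log2 difference −1.14 ± 0.13, SE, limma adjusted p = 1.36e-05), the only member probe set called lower in any state comparison within a fraction, where 9.74% of all probe sets were called lower. It was 2.77-fold higher in sleep deprivation than in waking (1.47 ± 0.13, adjusted p = 1.3e-06, rank 23 by p). Sleep deprivation against sleep gave 0.33 (95% interval 0.06 to 0.60, adjusted p = 0.0933), which passed without unbound sleep deprived replicate 8 (0.0487).

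In bound arrays the group means of 1420720_at were highest in sleep deprived and lowest in sleep arrays, but waking was called apart from neither. Signals were 6.22, 6.61 and 7.33 log2 in sleep deprived, 4.85, 6.15 and 7.25 in waking and 5.27, 5.70 and 6.19 in sleep arrays. The waking arrays spanned both other groups. Sleep deprivation against waking gave 0.49 (95% interval −0.16 to 1.14, limma adjusted p = 0.328). Sleep deprivation exceeded sleep by 1.03 ± 0.31 (limma adjusted p = 0.0229), a call lost without bound sleep replicate 4 (0.0522) or bound sleep deprived replicate 7 (0.055). Waking against sleep gave 0.54 (95% interval −0.11 to 1.19, adjusted p = 0.25) and was called without bound waking replicate 5 (0.82, adjusted p = 0.0374) and without the 3 animals lacking Y-linked signal (0.89, adjusted p = 0.0493). The difference of waking from sleep was higher in bound than in unbound arrays by 1.68 ± 0.36 (adjusted p = 0.00351). For sleep deprivation against waking that difference was −0.98 (adjusted p = 0.0766), and −1.26 without the 3 animals lacking Y-linked signal (adjusted p = 0.0313). Per animal, the bound minus unbound value was −2.86 ± 0.45 in sleep deprived, −1.88 ± 0.92 in waking and −3.56 ± 0.47 in sleep animals (SD, n = 6 each).

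The second Nptx2 probe set, 1449960_at, was dim, at 4.35 to 6.91 log2, and did not follow the first. Its unbound difference of waking from sleep was −0.31 (95% interval −0.91 to 0.30, limma adjusted p = 0.52), an interval that leaves out the fall of 1420720_at. In bound arrays it was 0.81 ± 0.27 higher in sleep deprivation than in waking (adjusted p = 0.0495), and leaving out any one of 11 of the 12 arrays of those groups ended that call, as did leaving out the 3 animals lacking Y-linked signal (0.87, adjusted p = 0.118). The level filter (limma adjusted p = 0.0912), a fit without the intensity trend (0.0525) and the animal as a random block (0.0565) ended that call too. The difference of waking from sleep in bound arrays was −0.72 (95% interval −1.28 to −0.16, adjusted p = 0.071) and passed without bound sleep replicate 5 (0.0395). It was lower in bound arrays (log2 difference −1.08), in 16 of 18 animals.

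Levels of neuron markers were compared in the same way. Of 9 neuron markers, 1 was called higher and 0 lower in unbound sleep deprivation against sleep, and 0 higher and 1 lower in unbound waking against sleep. The shares of all genes were 7.75% higher and 6.27% lower in the first comparison, and 4.1% higher and 9.46% lower in the second. The mean level of the neuron markers per unbound array was 12.70 to 12.75 log2 in sleep deprived, 12.50 to 12.64 in waking and 12.60 to 12.72 in sleep arrays. In unbound sleep deprivation against waking 4 of the 9 were called higher, with a median of 0.16, as were 3 of 7 inhibitory neuron markers (median 0.35) and 0 of 5 excitatory neuron markers (median 0.05). Other cell types were shifted the same way in that comparison, where all genes had a median of 0.10, with 11.4% called higher and 4% lower. Oligodendrocyte markers were called higher for 3 of 7 (median 0.24) and dentate granule cell markers for 1 of 5 (median 0.30), while 0 of 6 astrocyte (median 0.30) and 0 of 6 microglia markers (median 0.31) were called. In bound arrays 1 of 9 neuron markers was called higher and 0 lower in sleep deprivation against sleep, and 0 in waking against sleep. The shares of all genes there were 10.5% higher and 9.42% lower, and 8.73% higher and 7.44% lower. The mean level of the neuron markers per bound array was 11.16 to 11.65 in sleep deprived, 11.34 to 11.57 in waking and 11.21 to 11.60 in sleep arrays. Bound sleep deprivation against waking called 0 of them higher and 1 lower (median 0.02), where 6.06% of all genes were higher and 6.58% lower. Excitatory neuron markers were lower for 1 of 5 there (median −0.46) and for 1 of 5 in bound sleep deprivation against sleep (median −0.22). Inhibitory neuron markers were called for 0 of 7 in both (medians −0.05 and −0.11). Microglia markers were lower for 2 of 6 in bound sleep deprivation against waking (median −0.58). The part of neuronal content in the members' changes was not tested beyond these values.

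Other genes of the activity response were counted from a list of 16 transcription factors and a list of effectors, 21 of 22 measured. Among the transcription factors, 8 rose and 0 fell in bound sleep deprivation against sleep, and 12 rose and 0 fell in unbound arrays (median log2 difference 0.85 and 1.08, against 0 and 0.02 for all genes). Waking against sleep gave 7 higher and 1 lower in bound arrays and 7 higher and 0 lower in unbound arrays. Sleep deprivation against waking gave 2 higher in bound and 7 higher in unbound arrays, with 0 lower. With 1 probe set for each of all 18193 genes, sleep deprivation against sleep called 10.5% higher and 9.42% lower in bound arrays and 7.75% higher and 6.27% lower in unbound arrays. Waking against sleep called 8.73% higher and 7.44% lower in bound arrays and 4.1% higher and 9.46% lower in unbound arrays. Sleep deprivation against waking called 6.06% higher and 6.58% lower in bound arrays and 11.4% higher and 4% lower in unbound arrays. Between bound and unbound arrays 20.4% of genes were higher and 62.2% lower.

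Egr2, a zinc-finger factor, showed the largest difference of the list in all 4 comparisons with sleep, 3.26 and 3.54 log2 in bound sleep deprivation and waking (limma adjusted p = 7.86e-07 and 6.98e-07) and 2.99 in unbound waking (adjusted p = 8.64e-05). In unbound sleep deprivation it was 3.21 (adjusted p = 4.18e-05). Fos, part of the AP-1 factor, was 2.69 higher in bound waking (adjusted p = 2.56e-06) and 2.68 higher in unbound waking (adjusted p = 3.81e-06). Nr4a1, an orphan nuclear receptor, was 1.69 higher in bound and 2.13 higher in unbound sleep deprivation (adjusted p = 2.13e-07 and 1.01e-06). It was also the 1 transcription factor called higher in bound than in unbound arrays (0.58, adjusted p = 1.92e-05), where 12 were lower. Atf3, a stress-induced factor, was 2.02 higher in unbound sleep deprivation (adjusted p = 7.24e-07) and −0.26 in bound (adjusted p = 0.433), with a tested difference between the fractions of −2.28 (adjusted p = 1.91e-05). Klf4, a zinc-finger factor, likewise differed between the fractions, by −1.97 in sleep deprivation and −1.86 in waking (adjusted p = 0.00137 and 0.00218). Egr1, a zinc-finger factor, differed the other way, with a larger difference from sleep in bound arrays by 0.35 in sleep deprivation and 0.40 in waking (adjusted p = 0.0222 and 0.0109). Fosb, an AP-1 partner of the Jun proteins, differed by −2.08 in sleep deprivation against waking (adjusted p = 0.00433). Of all genes, the test of the difference between the fractions called 6.4% higher and 6.5% lower in sleep deprivation against sleep, 8.18% higher and 3.82% lower in waking against sleep, and 3.69% higher and 7.6% lower in sleep deprivation against waking.

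Among the effectors, 8 rose and 0 fell in bound and 11 rose and 0 fell in unbound sleep deprivation against sleep. Waking against sleep gave 3 higher and 1 lower in bound and 6 higher and 0 lower in unbound arrays. Inhba, an activin subunit, was 1.18 higher in bound and 1.96 higher in unbound sleep deprivation against sleep (limma adjusted p = 0.000256 and 1.93e-06). The phosphatase of ERK kinases Dusp6 was 1.04 and 1.19 higher in the same comparisons (adjusted p = 0.00245 and 1.79e-06) and 1.08 higher in unbound waking (adjusted p = 6.64e-06). Rheb, a GTPase that activates mTOR, fell by 0.35 in bound waking (adjusted p = 0.0046). Its difference from sleep differed between the fractions by −0.41 in sleep deprivation and −0.42 in waking (adjusted p = 0.00893 and 0.00774). Sleep deprivation exceeded waking for 3 effectors in bound and 7 in unbound arrays, with 0 lower, with the smallest p in unbound arrays for Inhba, Ptgs2 and Nrn1 (1.58, 1.33 and 0.21).

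**Figure D5:**
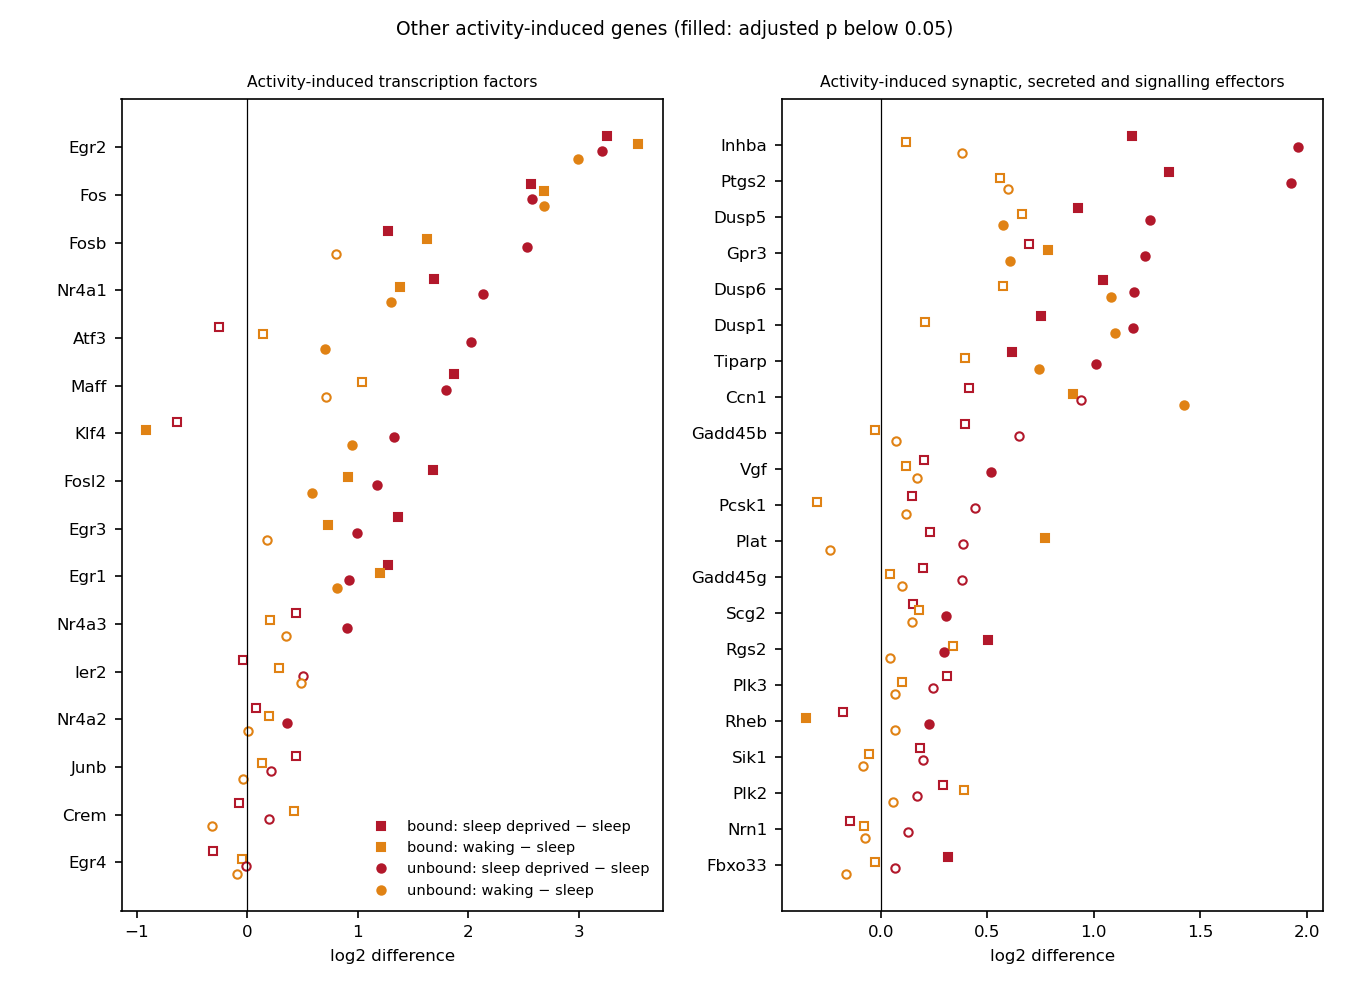
Log2 difference from sleep (x axis) of the listed transcription factors (left) and effectors (right), 1 probe set per gene, for sleep deprivation (red) and waking (orange) in bound (squares) and unbound (circles) arrays; filled symbols have an adjusted p below 0.05. Egr2 and Fos lie above 2.5 in all 4 comparisons, while Atf3 is at 2.02 in unbound and at −0.26 in bound sleep deprivation.

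The partners of the member proteins were seldom called in unbound arrays, at shares near those of all genes. Of 16 measured among 20 listed, sleep deprivation against sleep called 1 higher (Nptx1, the companion pentraxin, 0.30, limma adjusted p = 0.00309) and 0 lower. Waking against sleep called 0 higher and 1 lower (Camk2b, a calcium-dependent kinase that binds Arc, −0.26, adjusted p = 0.0228). Of all genes, 7.75% were higher and 6.27% lower in the first comparison, and 4.1% higher and 9.46% lower in the second. In bound arrays 2 rose and 3 fell in sleep deprivation and 1 rose and 3 fell in waking. Of all genes, 10.5% rose and 9.42% fell in bound sleep deprivation, and 8.73% rose and 7.44% fell in bound waking. Ngfr, the p75 receptor that binds the Bdnf precursor, averaged 6.23 ± 0.51 log2 in bound sleep deprived, 6.39 ± 0.26 in bound waking and 7.83 ± 0.48 in bound sleep arrays (SD, n = 6 each). It was lower than in sleep by −1.60 and −1.44 on the log2 scale (adjusted p = 0.000105 and 0.000352), and this differed from the unbound arrays by −1.81 and −1.43 (adjusted p = 0.00156 and 0.00893). Gria4, an AMPA receptor subunit that Nptx2 gathers, was 0.91 higher in bound sleep deprivation (adjusted p = 0.000614). Shank3, a scaffold that Homer1 binds, was 0.41 higher in unbound sleep deprivation than in unbound waking (adjusted p = 0.019). Dnm2, the dynamin that Arc binds in endocytosis, was 0.38 higher in bound sleep deprivation and 0.34 higher in bound waking (adjusted p = 0.00973 and 0.0209).

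The genes most like each member over the 18 unbound arrays, by Pearson r among 13096 genes, were taken for the probe set of each member with the highest mean. For Arc they were Dusp6 (0.934), Egr1 (0.934) and Wipf3 (0.932), and for Homer1 Nr4a1 (0.935), Plin4 (0.932) and Tpt1 (0.923). For Bdnf they were Synj2 (0.876), Nudc (0.808) and Naa15 (0.801), for Npas4 Lypd3 (0.816), Bbs2 (0.796) and Srfbp1 (0.771), and for Nptx2 Stmn1 (0.944), Atp5md (0.933) and Atp5a1 (0.932). In bound arrays they were Chordc1 (0.890), Pou3f3 (0.883) and Ahsa1 (0.881) for Arc, and Chst7 (0.858), Ch25h (0.855) and Derl3 (0.848) for Homer1. They were Elovl5 (0.776), Gabrb1 (0.772) and Atp8a2 (0.764) for Bdnf, Tas1r1 (0.904), Fam71a (0.902) and Elmo1 (0.901) for Npas4, and Ccpg1 (0.891), Oxct2a (0.817) and Adam10 (0.800) for Nptx2. These values describe arrays that share states and normalization and carry no test.

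Once the state means were removed, the members did not track each other between animals beyond what the correction for 10 pairs allowed. In unbound arrays 10 pairs of genes gave a Pearson r between −0.624 and 0.542 over 18 animals, 4 of them with an unadjusted permutation p under 0.05 and 0 after Benjamini-Hochberg adjustment. The strongest was Arc with Npas4 (r = −0.624, permutation p = 0.0112, adjusted p = 0.112, Spearman rho −0.538 with permutation p = 0.0238 and adjusted p = 0.238), and r was −0.588 without the 2 animals farthest from the median of Arc. Those 2 were chosen on Arc alone and did not include sleep replicate 4, whose unbound Npas4 signal lay at 7.32 log2. How far this r rests on that animal was not tested. In bound arrays r ran from −0.424 to 0.516, with 1 unadjusted p under 0.05 and 0 adjusted, the strongest being Arc with Homer1 (r = 0.516, permutation p = 0.00995, adjusted p = 0.0995, rho 0.476 with permutation p = 0.0506 and adjusted p = 0.506). That r was 0.383 without the 2 farthest animals.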

How the data were processed

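Messenger RNA was measured on 36 expression arrays, 2 fractions of 18 mice in 6 groups of 6. The authors summarised each array by RMA into log2 values, 1 for each probe set, as the submitters' processing notes list; no RMA version is stated there. They were used as deposited. The number of arrays limits the precision. Nothing states separate processing batches.

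Of the 45101 probe sets, 64 array controls were left out and 45037 tested. Gene symbols came from the platform annotation (34945 probe sets with 1 symbol, 932 with several, 9160 with none listed), and Entrez lookup of 34754 changed 0 symbols. Tests used limma 3.58.1 in R 4.3.3 and data.table at version 1.17.8, with an intensity trend: 3 state contrasts per fraction from its 18 arrays, and bound minus unbound differences per animal, with Benjamini-Hochberg adjustment over all probe sets within a contrast, called at 0.05. The per-animal pairing comes from the design and the titles; deviations from the group means correlated by 0.00565 to 0.0681 between an animal's bound and unbound arrays, and for 10 of 18 animals this was the highest correlation with any array of the opposite fraction. Correlations used 100000 permutations within groups. Dim probe sets were filtered only in alternatives, at the 40th percentile (4.467 log2 bound, 5.18 log2 unbound), which all 12 members passed in at least 1 fraction. The fit was tested on simulated data, drawn independently for each array. They held no link between an animal's arrays, no outlying arrays and no difference between RMA runs, so that test does not cover these. Python 3.11.15, numpy 2.4.6, pandas 2.3.3, scipy 1.17.1 and matplotlib 3.10.9 served for correlations and figures.

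Every member probe set is given with its values. Of the 15 lists of other genes (130 genes, 118 matched), each gave counts and, per contrast, up to 3 called genes with the smallest p; the 3 genes most like each member were named by Pearson r, over genes past the level filter. Fos, Nr4a1, Klf4, Atf3 and other listed genes carry values of a second contrast chosen after their values were seen. The members and lists were chosen with earlier results of these data known.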

Additional observations from a re-analysis of the deposited data

Results flagged for a closer look

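Among 72 groups of 6 arrays (12 probe sets in 6 groups), 4 held an array far from the others by Dixon's test, which chance does in about 1 group in 20. Unbound sleep replicate 4 read 7.32 log2 for Npas4 (the nearest other array 5.59). Unbound sleep deprived replicate 8 read 10.64 for Homer1 1439662_at (nearest 10.83). Bound sleep replicate 5 read 7.47 for Homer1 1437363_at (nearest 8.39). Unbound waking replicate 1 read 7.54 for Bdnf 1422169_a_at (nearest 7.35).

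For 5 of 36 tests of the 12 probe sets (1, 3 and 1 of 12 in sleep deprivation against sleep, waking against sleep and sleep deprivation against waking), the state difference was unlike between the fractions by limma's test of the difference itself. Over all probe sets 14.6%, 14% and 12.9% were called in these comparisons, so the members' share is near the background. The difference was −1.82 for Arc in sleep deprivation against sleep and −1.52 in waking against sleep. It was 1.68 for Nptx2 1420720_at and 0.59 for Homer1 1439662_at in waking against sleep. For Homer1 1425671_at it was −0.69 in sleep deprivation against waking.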

How the results depend on the processing

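Alternatives changed the normalization, the filter, the intensity trend, the block and the animals used, and no difference called in the fits reported changed direction under any of them. Among the fits that left out a single replicate, 32 fits lost a call, 628 fits kept it and 14 fits gained one. These are counts of fits, so the same difference can be counted several times. With 1 probe set per gene past the filter, the 5 genes gave 4 calls in bound sleep deprivation against sleep, 2 in bound waking against sleep, 1 in bound sleep deprivation against waking, 2, 3 and 2 in the same unbound comparisons, 5 between the fractions and 0 for the fraction difference of sleep deprivation against waking; fewer probe sets were counted there. The fraction difference of sleep deprivation against sleep called 2 of 12 instead of 1 after quantile normalization of 36 arrays and without the 3 animals lacking Y-linked signal. That of sleep deprivation against waking called 0 after quantile normalization within fractions and without the replicate block, and 2 without those 3 animals, where bound sleep deprivation against waking called 2 instead of 4. The cause was not tested. Leaving out one replicate gave 2 to 4 calls in bound sleep deprivation against waking, 1 to 2 for the fraction difference of sleep deprivation against sleep and 0 to 2 for that against waking.

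With the number shared by waking and sleep arrays as a replicate block, 4 instead of 5 bound probe sets were called (Bdnf 1422169_a_at at an adjusted p of 0.0521) and 5 as before in unbound arrays. These numbers name different mice; same-numbered arrays correlated by −0.0212 to 0.0853 (bound) and 0.0031 to 0.0838 (unbound), and 4 of 6 waking arrays in each fraction matched best with their own number. Without the animal block, 12 probe sets were called between the fractions, and 1 and 3 for the fraction differences against sleep. With the animal as a random block over 36 arrays (consensus correlation 0.0397), 7 were called in bound waking against sleep.

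Uncalled values changed sign. Quantile normalization of 36 arrays turned the fraction difference of Homer1 1425671_at in waking against sleep to −0.042. Without the 3 animals, Bdnf 1422168_a_at gave 0.173 in bound waking against sleep, −0.033 in bound sleep deprivation against waking, and 0.102 (waking against sleep) and −0.365 (sleep deprivation against waking) for fraction differences. Arc gave 0.045 and Homer1 1425710_a_at 0.083 in bound sleep deprivation against waking, and the fraction difference of Bdnf 1422169_a_at in that comparison was −0.014. Leaving out one replicate gave these ranges. In bound sleep deprivation against waking, Arc ran from −0.112 to 0.058 and Homer1 1425710_a_at from −0.134 to 0.115. In bound sleep deprivation against sleep, Bdnf 1422168_a_at ran from −0.009 to 0.477 and Nptx2 1449960_at from −0.045 to 0.27. In bound waking against sleep, Bdnf 1422168_a_at ran from −0.385 to 0.048 and Homer1 1437363_at from −0.214 to 0.071. In unbound arrays Bdnf 1422168_a_at ran from −0.049 to 0.142 and 1422169_a_at from −0.026 to 0.168 (waking against sleep), Npas4 from −0.139 to 0.017 (sleep deprivation against waking) and Nptx2 1449960_at from −0.019 to 0.267 (sleep deprivation against sleep). For fraction differences of sleep deprivation against sleep, Bdnf 1422168_a_at ran from −0.371 to 0.083, Homer1 1437363_at from −0.087 to 0.177, Homer1 1436387_at from −0.133 to 0.032, Npas4 from −0.009 to 0.489 and Nptx2 1449960_at from −0.265 to 0.289. For those of sleep deprivation against waking, Bdnf 1422168_a_at ran from −0.114 to 0.232, 1422169_a_at from −0.102 to 0.132 and Homer1 1425710_a_at from −0.044 to 0.188. For waking against sleep, Bdnf 1422168_a_at ran from −0.413 to 0.006.

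Some fraction differences gained a call. The fraction difference of Nptx2 1420720_at in sleep deprivation against waking passed without waking replicate 5 (−1.3, adjusted p = 0.00702). That of Homer1 1425671_at in sleep deprivation against sleep (adjusted p = 0.0531) passed without sleep replicate 2 (0.0466) or 3 (0.0328) and without sleep deprived replicate 6 (0.0482) or 11 (0.0447).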
